A study of Mus musculus with 12 samples.

Results

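The comparison set the pressure-overloaded left ventricle of 3 mice with a band around the aorta (AB) against the left ventricle of 3 mice that had a sham procedure in place of banding and later a second operation, which the labels call debanding (sDB3). These 6 arrays were taken by their labels from a series of 12, and 10435 genes were compared. All mice were male C57BL/6, without any transgene, and had their first operation at 7 weeks of age. AB mice were studied 4 weeks after banding, still banded. sDB3 mice had the second operation after those 4 weeks and were studied 3 days later. The other 6 arrays, 3 of the single sham at 4 weeks (sAB) and 3 of banded mice 3 days after removal of the band (DB3), entered the common estimate of the spread. AB and sDB3 mice differed in the band, in the second operation and in 3 days of time, and these cannot be told apart here. For some genes the difference from the sAB arrays, the level after a single sham, is given as well. The sAB arrays also stood apart in spike levels, given below, and the part of this in those differences was not tested.

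Pressure overload makes cardiomyocytes grow. In rodent ventricles the growing cells take up genes of the fetal heart, such as the beta myosin heavy chain and the natriuretic peptides, while fibroblasts lay down matrix and the energy supply shifts away from fatty acids. Bulk tissue cannot show whether a lower or higher level comes from a changed number of cells of a type or from a changed amount of RNA per cell.

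AB and sDB3 were set against each other because they share a level of the bacterial spike BioC, so this likeness comes from the choice: 8.41 ± 0.17 in AB and 8.39 ± 0.18 in sDB3 (log2, SD, n = 3 each), whereas the sAB arrays had 10.4 ± 0.18. The 9 markers of ventricular cardiomyocytes, Myh6, Myl2, Myl3, Mybpc3, Tnni3, Tnnt2, Ryr2, Atp2a2 and Pln, lay between 13.9 and 16.5 in AB and between 13.9 and 16.6 in sDB3, near the upper end of the scale at 16.6. The difference between 3′ and 5′ probe sets of Actb, a measure of RNA integrity, was 1.02 to 1.13 in AB and 1.20 to 1.25 in sDB3 on the log2 scale, without overlap, while that of Gapdh overlapped. The share of probe sets within 0.01 of the lowest value, 2.23, was 36.5% to 36.8% in AB and 33.5% to 35.1% in sDB3. The part of these differences in the results was not tested. Among replicates, sDB3 replicate 3 was at least 2-fold away from the mean of its group mates in 101 genes and sDB3 replicate 2 in 96, against 35 to 45 genes for each AB array and 32 for sDB3 replicate 1. In clock genes sDB3 replicate 3 stood with the AB and sAB arrays, as shown further on, and whether its label is right was not tested. Without it 1578 genes were higher and 427 lower in AB, and 14 hypertrophy genes rose and 0 fell. The number of arrays limits the precision of every difference, and p-values measure the spread between the mice of these groups.

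In all, 2298 of 10435 genes (22.0%) passed an adjusted p of 0.05 in AB against sDB3 (limma, Benjamini-Hochberg over all genes). Of these, 1809 were higher in AB, 17.3% of the genes tested, and 489 were lower, 4.69%. Most differences were small: 1210 of the higher and 345 of the lower genes changed by less than 1.5-fold, 177 rose and 36 fell by at least 2-fold, and 17 rose and 4 fell by at least 4-fold. The 3 AB arrays lay above the 3 sDB3 arrays in 3393 genes (32.5%) and below them in 1093 (10.5%), and 2269 of the genes that passed had no overlap. The surplus of higher genes rests on the scale of the values. The median gene was 0.11 higher in AB on the log2 scale of the deposited values, against 0.01 after quantile normalization, -0.04 after centring on the genes tested and 0.16 after centring on all probe sets. The numbers of higher and lower genes were 918 and 726 after quantile normalization, 738 and 1320 after centring on the genes tested, and 2417 and 351 after centring on all probe sets. Under all 4 scalings 722 genes were higher and 344 lower. With AB replicate 2 left out 1231 genes passed, with AB replicate 3 left out 1124, and with sDB3 replicate 2 left out 1446. Below, a call is described as held in every fit when it passed in the main fit, in each of the 12 fits that leave out 1 array and under the 3 other scalings. Each list count below stands beside the 17.3% of all genes tested that were higher and the 4.69% that were lower.

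**Figure D1:**
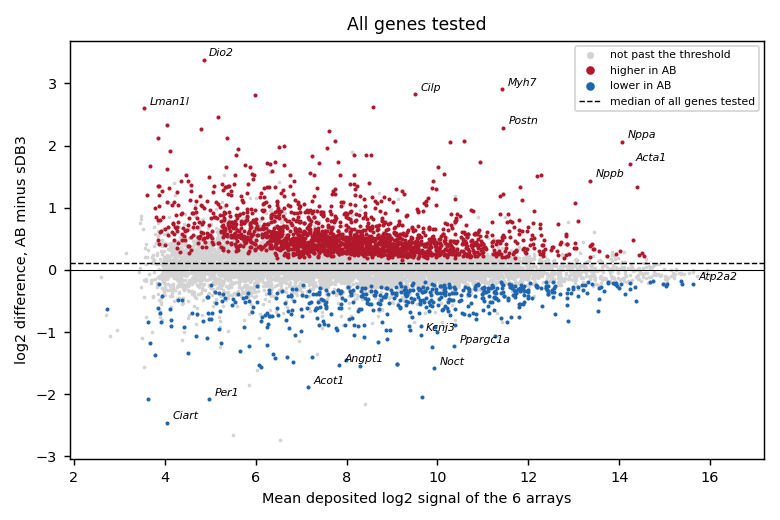
Difference between AB and sDB3 (log2, vertical) against the mean deposited log2 signal of the 6 arrays (horizontal), 1 point per gene tested, with genes past the threshold coloured and 16 genes named. The 1809 higher genes outnumber the 489 lower ones, and the dashed median line stands at 0.11.

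Beta myosin heavy chain, the natriuretic peptides and skeletal alpha actin were all higher in AB. Of the 21 measured genes of the hypertrophy and fetal programme, 15 rose and 0 fell, with a median difference of 1.33 against 0.11 over all genes tested, and 14 of the 15 held in every fit. The list was chosen with results of these data known, so its count is a description. After centring on the genes tested 14 rose and 1 fell. The atrial light chains Myl4 and Myl7, among the 6 that did not pass, varied widely within both groups. Myl7 was 11.62, 9.41 and 11.94 in AB and 12.41, 12.97 and 10.11 in sDB3, and Myl4 was 11.30, 9.64 and 11.95 in AB and 12.05, 12.63 and 10.28 in sDB3. Neither passed (adjusted p = 0.748 and 0.763).

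Promoters of genes that head this group are printed to show the sequence next to the start of transcription. Each runs from 250 bases before to 50 after a start site of RefSeq, on the gene's own strand, build GRCm38.p6, and 12 of 13 genes searched had an entry. Capitals mark the M-CAT motif CATTCC or its reverse GGAATG, known as a site of TEAD factors, the CArG box, known as a site of serum response factor, and the GATA motif AGATAA, each searched on both strands. Nppb lies at chr4:147985650-147985949 on the plus strand, Acta1 at chr8:123894726-123895025 on the minus strand and the first of the Myh7 starts at chr14:54994577-54994876 on the minus strand.
Nppb: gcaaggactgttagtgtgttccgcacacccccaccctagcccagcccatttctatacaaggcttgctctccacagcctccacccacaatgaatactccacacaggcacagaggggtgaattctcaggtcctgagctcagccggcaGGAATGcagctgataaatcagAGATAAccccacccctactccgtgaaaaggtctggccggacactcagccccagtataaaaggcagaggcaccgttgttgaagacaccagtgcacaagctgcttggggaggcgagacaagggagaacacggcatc
Acta1: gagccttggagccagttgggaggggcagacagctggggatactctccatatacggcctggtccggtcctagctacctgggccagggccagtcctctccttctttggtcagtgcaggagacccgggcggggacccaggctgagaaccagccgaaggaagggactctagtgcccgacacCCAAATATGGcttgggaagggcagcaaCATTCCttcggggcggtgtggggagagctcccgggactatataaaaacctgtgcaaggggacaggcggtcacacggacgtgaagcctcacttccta
Myh7: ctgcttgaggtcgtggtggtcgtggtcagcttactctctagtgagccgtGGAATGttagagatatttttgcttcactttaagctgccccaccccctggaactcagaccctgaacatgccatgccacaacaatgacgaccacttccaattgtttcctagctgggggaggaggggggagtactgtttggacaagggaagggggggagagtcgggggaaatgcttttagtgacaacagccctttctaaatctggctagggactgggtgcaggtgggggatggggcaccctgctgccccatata
The Nppb promoter held GGAATG 105 bases and AGATAA 84 bases before the start. The Acta1 promoter held a CArG box 73 bases and CATTCC 46 bases before it, and the Myh7 promoter held GGAATG 201 bases before it. Of all 32544 different promoter sequences of the table, 14.6% held the M-CAT motif, 11.2% the GATA motif and 1.64% a CArG box. The printed letters are matches and not shown to be bound. The Nppa promoter and the second Myh7 start held none of these motifs in the same window, while Myh6, which did not pass, held GGAATG 206 bases before its start.

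Myh7, the beta myosin heavy chain and slow motor of the fetal mouse ventricle, had a log2 signal of 12.41, 12.98 and 13.23 in AB, against 9.87, 9.79 and 10.23 in sDB3. All AB arrays lay far above all sDB3 arrays. The rise was 7.51-fold (log2 2.91 ± 0.25 SE, limma adjusted p = 0.000259). Its adult partner Myh6, the alpha myosin heavy chain, was 16.50, 16.35 and 16.45 in AB and 16.57, 16.56 and 16.56 in sDB3. The AB arrays were slightly lower without overlap near the top of the scale, and Myh6 did not pass (log2 -0.13 ± 0.06 SE, adjusted p = 0.136). Centring on the genes tested brought Myh6 past the threshold.

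Nppa, which encodes atrial natriuretic peptide, was 14.90, 15.19 and 15.21 in AB, against 12.93, 13.11 and 13.06 in sDB3. The groups were far apart and each was tight, and Nppa rose 4.19-fold (log2 2.07 ± 0.16 SE, adjusted p = 0.00017). Nppa is also an atrial marker, and AB replicate 2, which had the lowest Myl4 and Myl7 of AB, had an Nppa level of 15.19. The 13 measured atrial markers had a summed linear signal of 39084 to 48774 in AB and 13894 to 28278 in sDB3, Nppa included. Their median log2 difference was -0.54, with 2 rises and 2 falls. Because Nppa is in that sum, the sum cannot show atrial content apart from the Nppa rise. The part of atrial tissue in this rise was not tested. The group's other peptide gene Nppb, encoding B-type natriuretic peptide, was 13.90, 14.18 and 14.13 in AB, against 12.49, 12.75 and 12.66 in sDB3. It rose 2.7-fold without overlap (log2 1.43 ± 0.19 SE, adjusted p = 0.00108). Nppb was also lower in sDB3 than in sAB (log2 -0.61, adjusted p = 0.0489), and AB against sAB gave 0.82. Npr3, the receptor that clears natriuretic peptides, rose by 0.80 and held in every fit, whereas the processing protease Corin (log2 -0.34, adjusted p = 0.0645) and the peptide-degrading Mme (log2 -0.64, adjusted p = 0.0505) did not pass.

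Acta1, skeletal alpha actin, was 14.98, 15.15 and 15.15 in AB, against 13.59, 12.90 and 13.68 in sDB3, a rise of 3.25-fold (log2 1.70 ± 0.21 SE, adjusted p = 0.000759). Rcan1, a feedback inhibitor of calcineurin, was 11.35, 11.93 and 11.58 in AB and 9.60, 9.10 and 9.95 in sDB3. It rose 4.2-fold (adjusted p = 0.000415), and was itself lower in sDB3 than in sAB by 0.75 on the log2 scale (sDB3 minus sAB -0.75, adjusted p = 0.038). Ankrd1, a stretch-responsive protein of the titin filament, rose 2.51-fold (log2 1.33 ± 0.13 SE). Mybpc2, the fast skeletal form of myosin-binding protein C, was 9.44, 9.37 and 9.24 in AB and 7.78, 7.39 and 7.34 in sDB3 and rose 3.6-fold. Of the 6 measured skeletal muscle markers 3 rose and 0 fell, with a median of 0.59, and the rises of Acta1, Mybpc2 and the light chain Myl1 held in every fit. Their summed linear signal was 59062 to 63464 in AB and 35229 to 39137 in sDB3. Acta1 and Mybpc2 are in this sum, so it cannot show skeletal muscle content apart from their rises. Ckm, also in it, did not pass (log2 -0.11, adjusted p = 0.180). The part of skeletal muscle in the rises of Acta1 and Mybpc2 was not tested. Of the defining markers Tnni2 and Tnnt3 were not among the genes tested, and the fast skeletal light chain Mylpf lay between 3.97 and 4.13 in AB and at 4.13 on the 3 sDB3 arrays, which is dim. Pfkp, a phosphofructokinase of glycolysis that is low in adult muscle, rose 2.16-fold, and Meox1, a transcription factor of fibroblasts and mesoderm, was 8.11, 8.79 and 9.27 in AB and 6.95, 6.41 and 6.13 in sDB3, a rise of 4.69-fold.

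The largest rise of the comparison by the rule for named genes belonged to Dio2, the deiodinase that activates thyroid hormone. It was 5.73, 6.52 and 7.38 in AB, against 3.79, 2.57 and 3.12 in sDB3, so that all sDB3 arrays were dim. The rise was 10.4-fold (log2 3.38 ± 0.42 SE, adjusted p = 0.000754) and is compressed by the floor. AB against sAB gave 2.29 for Dio2. Lman1l, a lectin-like protein related to cargo receptors of the secretory pathway, was 4.23, 5.08 and 5.22 in AB and 2.25, 2.26 and 2.23 in sDB3, where all 3 arrays were at or near the floor of 2.23, so its log2 difference of 2.60 is a compressed value. Tnfrsf12a, the receptor for the cytokine TWEAK, had the lowest adjusted p of the named genes, 5.64e-05. It was 10.72, 11.08 and 10.94 in AB and 9.34, 9.43 and 9.31 in sDB3. Egr3, an early growth response factor, was 6.05, 7.05 and 6.21 in AB and 4.41, 3.78 and 4.73 in sDB3, a rise of 2.13 on the log2 scale.

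**Figure D2:**
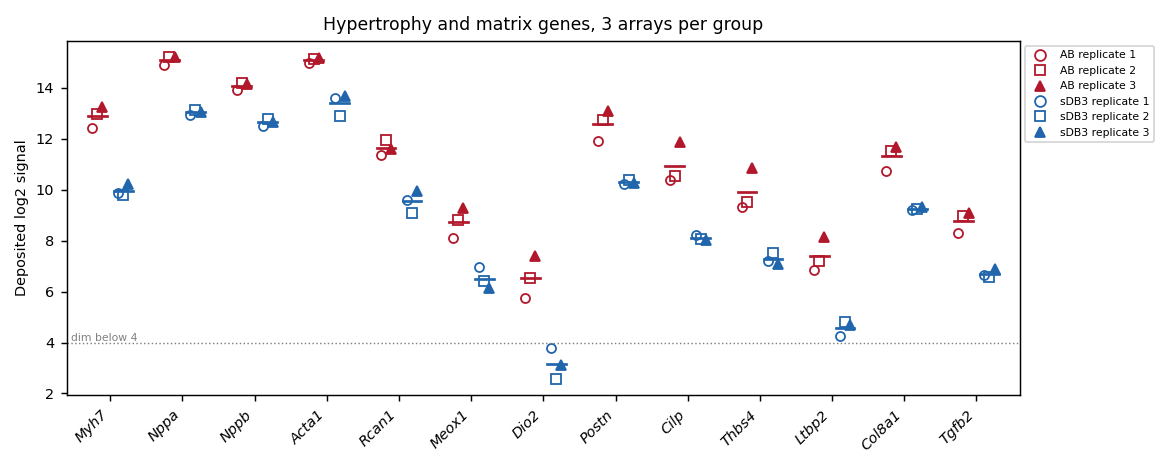
Deposited log2 signal (vertical) of 13 hypertrophy and matrix genes on each of the 3 AB arrays (left of each pair, red) and the 3 sDB3 arrays (right, blue), with bars at the group means. Every AB point lies above every sDB3 point, with gaps from Dio2 at 3.38 to Nppb at 1.43 between means.

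Z-disc and costamere genes rose in 9 of 19 measured members (47.4%) and fell in 1 (5.26%), beside 17.3% and 4.69% of all genes tested. Their median was 0.21, and 5 rises held in every fit. After centring on the genes tested 5 rose and 2 fell. The single fall passed in none of the fits without AB replicate 1, AB replicate 2, sDB3 replicate 1 or sDB3 replicate 2. Synpo2l, an actin-binding protein of the Z-disc, was 12.69, 13.18 and 13.28 in AB and 11.41, 11.63 and 11.51 in sDB3, a rise of 2.89-fold. Myot, the Z-disc protein myotilin, rose by 0.91 on the log2 scale. Of 15 thick and thin filament genes of the adult ventricle 0 rose and 2 fell, with 7 falls after centring on the genes tested. The falls were Tmod1, a pointed-end cap of actin, by 0.28 and Tnni3, cardiac troponin I, by 0.18. Neither held in every fit: without AB replicate 2 or sDB3 replicate 2 the count of falls was 0, with 1 rise without sDB3 replicate 2, and it was 1 without AB replicate 1, AB replicate 3, sDB3 replicate 1, sDB3 replicate 3, sAB replicate 2, sAB replicate 3 or DB3 replicate 2. Among intercalated disc genes the desmosomal cadherin Dsg2 was 11.16, 10.71 and 11.14 in AB and 11.65, 11.92 and 11.78 in sDB3 and fell by 0.78, while the desmosomal plaque protein Pkp2 rose by 0.45. Both held in every fit.

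Genes of the extracellular matrix rose in several classes. Matricellular and elastic fibre proteins rose in 16 of 32 members (50%) and fell in 3 (9.38%), beside 17.3% and 4.69% of all genes tested. Their median was 0.84, and 11 rises held in every fit. Without AB replicate 1, AB replicate 3, sDB3 replicate 1 or sDB3 replicate 2 the number of falls was 1. Cilp, a secreted matrix protein of activated fibroblasts, was 10.37, 10.54 and 11.87 in AB, against 8.21, 8.08 and 8.01 in sDB3, a rise of 7.09-fold (log2 2.83 ± 0.35 SE, adjusted p = 0.000754). Ltbp2, a latent TGF-beta binding protein of elastic fibres, was 6.83, 7.21 and 8.14 in AB, against 4.26, 4.82 and 4.68 in sDB3 (log2 2.81 ± 0.34 SE). Thbs4, a thrombospondin of stressed muscle, was 9.32, 9.50 and 10.85 in AB, against 7.20, 7.50 and 7.09 in sDB3 (log2 2.63 ± 0.33 SE). AB replicate 3 was the highest array in all 3 genes, and each passed without it.

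Periostin, encoded by Postn and made by activated fibroblasts, was 11.92, 12.75 and 13.08 in AB, against 10.24, 10.40 and 10.26 in sDB3, a rise of 4.87-fold (log2 2.28 ± 0.34 SE, adjusted p = 0.0018). Ccn2, connective tissue growth factor, was 11.32, 11.93 and 12.19 in AB and 10.26, 10.50 and 9.47 in sDB3, a rise of 3.33-fold. Spon2, a secreted matrix protein of the spondin family, was 5.25, 4.81 and 5.59 in AB and 2.88, 2.70 and 3.06 in sDB3, a difference of 2.34. It stood out from the others in its other sham: sDB3 was lower than sAB by a similar size (log2 -2.22, adjusted p = 0.00255), and AB against sAB gave only 0.12 (adjusted p = 0.824). For Cilp, Ltbp2, Thbs4 and Postn, in contrast, AB against sAB gave 2.81, 2.37, 2.56 and 1.91.

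The collagens are described by type. Among fibrillar collagens 3 of 6 rose (50%, beside 17.3% of all genes tested) and 0 fell. Without AB replicate 3 or sDB3 replicate 1 only 1 rose. That one was Col5a3, a minor chain of type V collagen, which was 7.81, 7.90 and 7.96 in AB and 6.94, 6.61 and 7.40 in sDB3 and held in every fit. The major chains did not pass: Col1a1 was 10.65, 10.63 and 11.66 in AB and 9.58, 10.11 and 9.69 in sDB3 (log2 1.19 ± 0.47 SE, adjusted p = 0.0958), and Col3a1 was 12.97, 13.19 and 13.65 in AB and 12.39, 12.66 and 12.44 in sDB3 (log2 0.77 ± 0.41 SE, adjusted p = 0.198). In both, the AB arrays lay above the sDB3 arrays without overlap, as in 32.5% of all genes tested, with AB replicate 3 highest. AB against sAB gave 1.76 for Col1a1 (adjusted p = 0.025), 0.51 for Col3a1 (adjusted p = 0.418) and 0.50 for Col5a3 (adjusted p = 0.0727). Col8a1, a short-chain collagen of vessel walls and remodelling tissue, was 10.75, 11.51 and 11.68 in AB, against 9.22, 9.23 and 9.31 in sDB3, a rise of 4.17-fold (log2 2.06 ± 0.20 SE, adjusted p = 0.000297). Among the 9 other collagens, 4 rose and 0 fell, and the number of rises was 1 without AB replicate 3 or sDB3 replicate 1 and 2 without sDB3 replicate 2 or sDB3 replicate 3. A fall appeared without sDB3 replicate 2.

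Basement membrane collagens and laminins rose in 10 of 18 members (55.6%) and fell in 2 (11.1%), beside 17.3% and 4.69% of all genes tested. Their median was 0.42, and 7 rises held in every fit. The number of falls was 1 without AB replicate 2, AB replicate 3, sDB3 replicate 1 or sDB3 replicate 3. Col4a1, a main chain of the type IV network, was 13.43, 13.58 and 13.70 in AB, against 12.35, 12.53 and 12.62 in sDB3, a rise of 2.1-fold (log2 1.07 ± 0.10 SE, adjusted p = 0.000297). Col4a4 rose by 1.22 and Col4a3, dim in sDB3, by 1.67. Col4a3, 1 of the 10 rises, exceeded 4 on the 3 AB arrays only. It thus entered the test only through the group where it was high. Col15a1, a collagen at the outer face of the basement membrane, rose by 0.97 and was also higher in sDB3 than in sAB (log2 0.73, adjusted p = 0.0120). Of 18 genes that process and crosslink collagen, 9 rose and 0 fell, with 5 rises without AB replicate 3 and 1 fall without DB3 replicate 3. P3h2, a prolyl hydroxylase of basement membrane collagen, rose by 1.19, Pcolce2, an enhancer of procollagen cleavage, by 0.92 and the lysyl oxidase Loxl3 by 0.97, and all 3 held in every fit.

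Proteoglycans rose in 10 of 19 members (52.6%, beside 17.3% of all genes tested) and fell in 0. The rises numbered 4 without AB replicate 3 and 6 without sDB3 replicate 3, after quantile normalization or after centring on the genes tested. Aspn, the small proteoglycan asporin, rose by 1.08 and Cspg4, a proteoglycan of pericytes, by 0.85, both in every fit. Bgn, biglycan, was 12.39, 12.44 and 12.95 in AB and 11.67, 11.66 and 11.60 in sDB3 and lost its call without AB replicate 3. Integrins rose in 7 of 15 members and fell in 0, and 6 held in every fit, among them Itgb5 by 0.97, Itga9 by 0.85 and Itga6 by 0.78. Itgbl1, an integrin beta-like secreted protein, was 8.59, 9.07 and 9.58 in AB and 7.44, 7.31 and 6.92 in sDB3, a rise of 3.61-fold. Among matrix proteases and inhibitors, 10 of 25 rose (40%) and 1 fell (4%), beside 17.3% and 4.69% of all genes tested. The rises numbered 6 without AB replicate 2 or after quantile normalization. They numbered 5 without AB replicate 3 or sDB3 replicate 2 or after centring on the genes tested. Under that centring 2 genes fell, and after quantile normalization 1 fell. The fall was absent without any single AB array or sDB3 replicate 1 or 2, and 2 genes fell without sDB3 replicate 3. Adamtsl2, an ADAMTS-like protein of microfibrils, rose by 1.19 and held in every fit, while Timp1, the inducible metalloproteinase inhibitor, was 6.11, 7.36 and 7.83 in AB and 5.76, 5.23 and 5.57 in sDB3 and did not pass (log2 1.58 ± 0.54 SE, adjusted p = 0.0605).

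Tgfb2, a ligand of the TGF-beta family, which drives matrix synthesis in fibroblasts, was 8.28, 8.95 and 9.08 in AB, against 6.64, 6.59 and 6.87 in sDB3, a rise of 4.21-fold (log2 2.07 ± 0.20 SE, adjusted p = 0.000307). The follistatin-like inhibitor Fstl3 was 6.63, 7.06 and 6.75 in AB and 5.89, 5.89 and 5.56 in sDB3 and rose by 1.04. Over the 39 measured genes of TGF-beta, BMP and activin signalling, 12 rose (30.8%) and 1 fell (2.56%), beside 17.3% and 4.69% of all genes tested. The rises numbered 6 without AB replicate 2 or AB replicate 3 and 7 after centring on the genes tested. The fall was absent without AB replicate 1, AB replicate 2, AB replicate 3, sDB3 replicate 1 or sDB3 replicate 2. The receptor Tgfbr2 (log2 0.48, adjusted p = 0.0564) and the transducer Smad3 (log2 0.47, adjusted p = 0.218) did not pass. In the Wnt list 6 of 22 genes rose (27.3%, beside 17.3% of all genes tested) and 0 fell. There were 3 rises and 1 fall after quantile normalization and 2 rises and 2 falls after centring on the genes tested. Only Frzb, a secreted Wnt inhibitor, held in every fit (8.12, 8.50 and 9.40 in AB, 6.89, 7.27 and 6.67 in sDB3), and the rises numbered 3 without AB replicate 1 and 1 without AB replicate 3 or sDB3 replicate 2, with 1 fall without sDB3 replicate 3. Sfrp2, another secreted inhibitor, was 5.75, 5.71 and 7.70 in AB and 4.24, 3.92 and 3.63 in sDB3. Its difference of 2.46 lost its call without AB replicate 2, AB replicate 3 or any of the sDB3 arrays.

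Markers of stromal cells rose in part, with counts that turned on the scale. Fibroblast markers rose in 7 of 21 members (33.3%) and fell in 1 (4.76%), beside 17.3% and 4.69% of all genes tested. Their median was 0.52, with a summed linear signal of 67016 to 82105 in AB and 58401 to 61125 in sDB3. The list holds collagens, so it is not separate from the genes above. The rises numbered 4 without AB replicate 2 or sDB3 replicate 2 and 3 without AB replicate 3, sDB3 replicate 1 or sDB3 replicate 3, 3 after quantile normalization and 2, with 2 falls, after centring on the genes tested. The fall, of the scavenger receptor Scara5, lost its call in 9 of the 12 fits that leave out 1 array. The defining markers Pdgfra at 9.66 to 9.79, Tcf21 at 8.34 to 8.58 and Dcn at 13.44 to 13.72 in AB lay above 9.32 to 9.58, 7.57 to 8.19 and 13.28 to 13.35 in sDB3. Over all genes tested, the AB arrays lay above the sDB3 arrays in 32.5%. Endothelial markers rose in 11 of 25 members (44%) and fell in 0, with summed signals of 43592 to 45833 in AB and 40433 to 41134 in sDB3. The count was 7 without AB replicate 2, 6 without AB replicate 3 or sDB3 replicate 1, 5 without sDB3 replicate 2 or after quantile normalization and 3 after centring on the genes tested, with 1 fall without sDB3 replicate 3. Of the defining markers, Pecam1 at 9.73 to 9.79 and Kdr at 9.97 to 10.07 in AB overlapped with 9.50 to 9.78 and 9.53 to 10.11 in sDB3, while Cdh5 at 9.57 to 9.68 in AB lay above 8.99 to 9.44 in sDB3. Cldn5, a tight junction protein, was 9.32, 8.69 and 8.54 in AB and 7.13, 7.09 and 8.16 in sDB3, and Erg, an endothelial transcription factor, rose by 0.77. Both held in every fit, and both were lower in sDB3 than in sAB (log2 -1.02 and -0.46, adjusted p = 0.0290 and 0.0140). Of the rises, 2 of the fibroblast list and 3 of the endothelial list held in every fit. The part of cell numbers in the matrix results was not tested.

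Markers of other cell types were also counted. Among 31 monocyte and macrophage markers only Cx3cr1, a chemokine receptor of resident macrophages, rose (7.20, 6.94 and 7.66 in AB, 6.14, 6.28 and 6.30 in sDB3). The 31 markers thus had 1 rise (3.23%, below the 17.3% of all genes tested) and 0 falls, with 3 rises without sAB replicate 3. Their summed signals were 26456 to 28826 in AB and 23442 to 28079 in sDB3, which overlap. Only 2 lymphocyte, 3 neutrophil and mast cell and 5 blood markers were measured, and Cd3e, Cd79a and Hba-a1 were not among the genes tested. Smooth muscle and pericyte markers rose in 5 of 15 members and fell in 1, and Acta2, Myh11 and Tagln overlapped between the groups. Their single fall was absent without AB replicate 2, AB replicate 3 or sDB3 replicate 2. Of 5 blood markers 0 rose and 2 fell, with a median of -0.53, and neither fall held in every fit. Both were absent without any single AB array or sDB3 replicate 1 or 2. Of 5 nerve and Schwann cell markers 0 rose and 2 fell, with a median of -0.74, and both falls held in every fit. Cadm4, an adhesion protein of Schwann cells, was 6.17, 5.95 and 5.88 in AB and 6.91, 6.87 and 6.44 in sDB3 and fell by 0.74, and AB against sAB gave -0.63 (adjusted p = 0.0180). The Schwann cell factor Sox10 was 4.15, 4.31 and 4.00 in AB and 5.06, 5.63 and 4.94 in sDB3 and fell by 1.06, while AB against sAB gave -0.03 and sDB3 against sAB gave 1.03 (adjusted p = 0.0108).

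**Figure D3:**
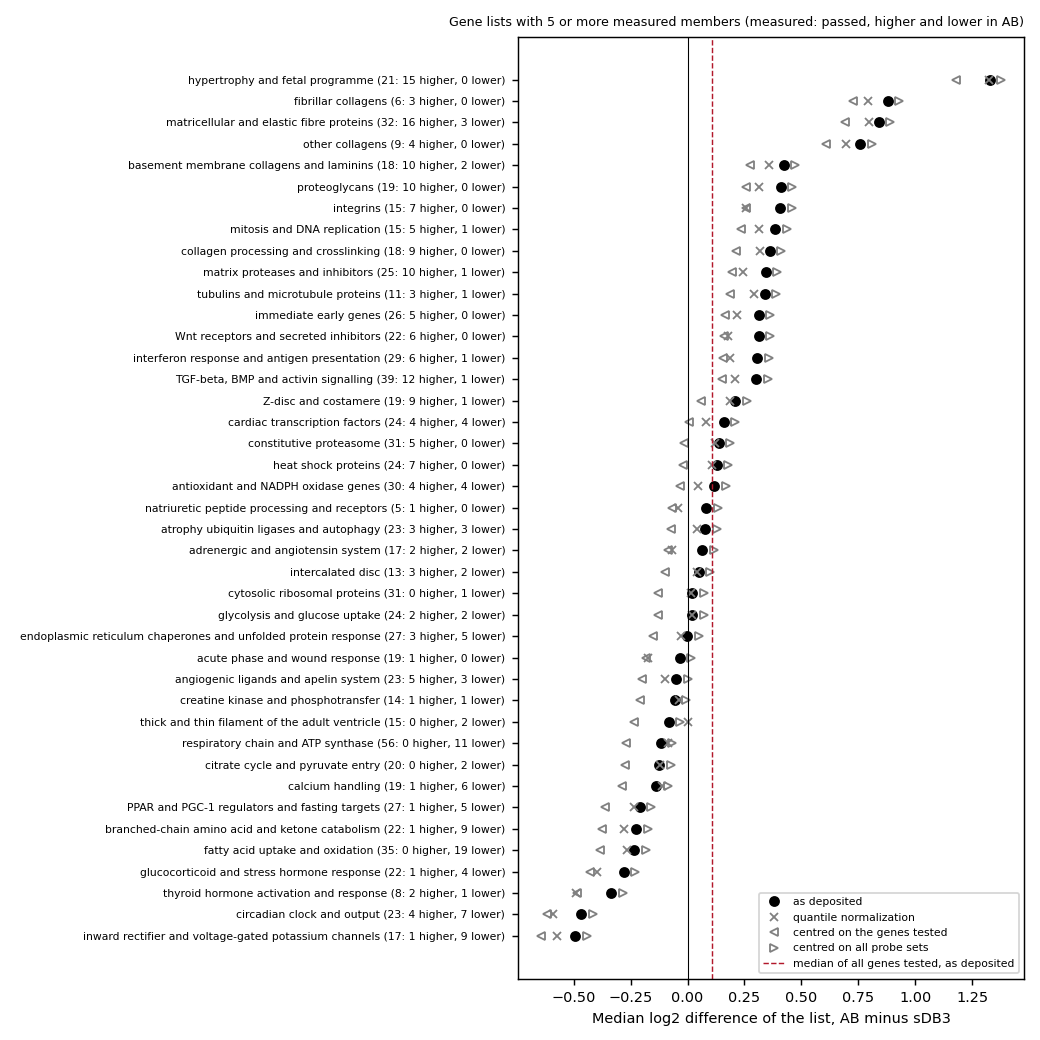
Median log2 difference (AB minus sDB3, horizontal) of the 41 pathway lists with 5 or more measured members, under the deposited scale (dots) and 3 other scalings (grey marks), with counts of members past the threshold. Hypertrophy genes stand at 1.33 and potassium channels at -0.49, and lists near 0 change sign between scalings.

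Genes of fat burning were lower in AB. Of 35 measured genes of fatty acid uptake and oxidation, 0 rose and 19 fell (54.3%, beside 4.69% of all genes tested). Their median was -0.23 against 0.11 over all genes tested. The count of falls depended on the arrays: 7 passed without AB replicate 2, and 10 passed in the fits without AB replicate 3 or sDB3 replicate 2, with 2 rises without sDB3 replicate 3. It was 14 after centring on all probe sets and 23 after centring on the genes tested, and 7 falls held in every fit. Acot1, which splits acyl-CoA in the cytosol and is a target of PPAR-alpha, was 6.63, 5.79 and 6.22 in AB, against 7.85, 8.03 and 8.42 in sDB3, and fell, the level in sDB3 being 3.71-fold higher (log2 -1.89 ± 0.26 SE, adjusted p = 0.00131). Ech1, an auxiliary enzyme for unsaturated fatty acids, was 14.24, 13.99 and 14.11 in AB and 14.59, 14.69 and 14.55 in sDB3 and fell by 0.50. Acaa2, the last enzyme of mitochondrial beta-oxidation, was 12.80, 12.39 and 12.50 in AB and 13.05, 13.25 and 13.06 in sDB3 and fell by 0.56.

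Regulators of this programme fell in part. Ppargc1a, the coactivator PGC-1alpha of mitochondrial genes, was 9.91, 9.60 and 9.74 in AB, against 11.68, 11.01 and 10.25 in sDB3, and fell by 1.23 on the log2 scale (adjusted p = 0.0107, held in every fit). The sDB3 arrays ran from 10.25 to 11.68, and AB against sAB did not pass (log2 -0.52, adjusted p = 0.204). G0s2, an inhibitor of triglyceride lipase, fell by 0.75 and Fbp2, the muscle fructose-bisphosphatase, by 1.04. Fbp2 was also lower in sDB3 than in sAB (log2 -0.65, adjusted p = 0.0421). Ppara, the fatty acid receptor itself, did not pass (log2 -0.69, adjusted p = 0.0574). Over the 27 genes of PPAR and PGC-1 regulation and fasting, 1 rose (3.7%) and 5 fell (18.5%), beside 17.3% and 4.69% of all genes tested. There were 2 rises without AB replicate 2 or sDB3 replicate 3 and 3 falls without AB replicate 2 or AB replicate 3. After centring on the genes tested 0 rose and 13 fell.

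For mitochondrial respiration the count turned on the scale. Of 56 respiratory chain and ATP synthase genes 0 rose and 11 fell (19.6%, beside 4.69% of all genes tested), with a median of -0.12. The number of falls was 42 after centring on the genes tested, 5 after quantile normalization and 2 after centring on all probe sets. It was 7 without AB replicate 1, sAB replicate 3 or DB3 replicate 2, 0 without AB replicate 2, 2 without AB replicate 3, 4 without sDB3 replicate 1, 3 without sDB3 replicate 2 and 5 without sDB3 replicate 3, and 0 falls held in every fit. Branched-chain amino acid and ketone genes fell in 9 of 22 members (40.9%) and rose in 1 (4.55%), beside 4.69% and 17.3% of all genes tested. There were 5 falls without AB replicate 2, 4 without AB replicate 3 and 16 after centring on the genes tested. Acadsb, an acyl-CoA dehydrogenase of branched chains, fell by 0.57, and Bdh1, the ketone-body dehydrogenase, was the rise, 12.40, 12.70 and 12.69 in AB and 12.15, 11.82 and 11.77 in sDB3. Both held in every fit, although only 1 of the 2 probe sets of Bdh1 passed. Phkg1, the catalytic subunit of muscle phosphorylase kinase, was 5.73, 5.32 and 4.89 in AB and 6.83, 7.00 and 6.70 in sDB3 and fell by 1.53.

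Potassium channel genes fell in 9 of 17 members (52.9%) and rose in 1 (5.88%), beside 4.69% and 17.3% of all genes tested. Their median was -0.49. The falls numbered 3 without AB replicate 2 and 4 without AB replicate 3, and the rise was absent without AB replicate 1 or sDB3 replicate 2 and after centring on the genes tested. Kcnj3, a G protein-gated inward rectifier subunit that is strong in atria, was 9.33, 8.91 and 9.09 in AB, against 10.14, 10.19 and 10.13 in sDB3, and fell by 1.05 (SE 0.13, adjusted p = 0.000834). Its atrial partner Kcnj5 was 8.49, 7.88 and 8.28 in AB and 8.81, 8.73 and 8.75 in sDB3 and fell by 0.55, with the call lost without AB replicate 2, AB replicate 3 or any sDB3 array. The atrial markers Myl4, Myl7 and Sln overlapped between the groups, with sDB3 replicate 3 low in them and not in Kcnj3. AB replicate 2 was the lowest AB array in Myl4, Myl7, Kcnj3 and Kcnj5. The part of atrial tissue in the falls of Kcnj3 and Kcnj5 was not tested. Kcnd2, a pore of the transient outward current, was 8.53, 8.76 and 8.32 in AB and 9.58, 8.99 and 9.20 in sDB3 and lost its call without AB replicate 3. Of the sodium and pacemaker channel genes, Scn4b, a sodium channel beta subunit, fell by 0.88 and Fgf13, which modulates sodium channels, by 0.58, the 2 falls of 4 genes, and both held in every fit.

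Calcium handling genes fell in 6 of 19 members (31.6%) and rose in 1 (5.26%), beside 4.69% and 17.3% of all genes tested. Of the falls 0 held in every fit. The falls numbered 1 without AB replicate 2 or AB replicate 3, 2 without sDB3 replicate 2 and 3 without sDB3 replicate 3. Atp2a2, the sarcoplasmic calcium pump SERCA2, was 15.57, 15.43 and 15.55 in AB and 15.70, 15.81 and 15.70 in sDB3 and fell by 0.22 (adjusted p = 0.0282). It lost its call without AB replicate 2, AB replicate 3 or sDB3 replicate 2, after quantile normalization and after centring on all probe sets. AB against sAB gave -0.03 (adjusted p = 0.743). Cacnb2, a calcium channel beta subunit, was 9.49, 9.32 and 9.51 in AB and 9.92, 10.29 and 9.66 in sDB3 and lost its call without AB replicate 2. The rise was Asph, junctin and its longer relatives, by 0.53.

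Angpt1, angiopoietin 1, a ligand that stabilises vessels, was 7.40, 6.68 and 7.13 in AB, against 8.11, 9.03 and 8.67 in sDB3, and fell by 1.53 (adjusted p = 0.00229). Fgf16, a growth factor made by heart muscle, was 6.52, 5.96 and 6.35 in AB and 7.06, 7.16 and 7.41 in sDB3 and fell by 0.93. Ano10, Tbc1d10c and Chd6 fell by 1.51, 1.47 and 1.45. Efnb3, an ephrin ligand, was 7.82, 7.19 and 7.54 in AB and 9.36, 8.91 and 8.92 in sDB3 and fell by 1.55, but it was also higher in sDB3 than in sAB (log2 0.98, adjusted p = 0.0263), and AB against sAB gave -0.57 (adjusted p = 0.145). Cenpf, a centromere protein, was 6.14, 4.52 and 5.36 in AB and 6.65, 7.32 and 6.71 in sDB3 and lost its call without sDB3 replicate 2, while Mki67, the proliferation marker, was 5.91, 5.39 and 6.46 in AB and 3.57, 3.55 and 3.84 in sDB3. Mki67 differed by 2.27 and lost its call without AB replicate 3. It was lower in sDB3 than in sAB by about as much (log2 -2.12, adjusted p = 0.0259), and AB against sAB gave 0.15.

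**Figure D4:**
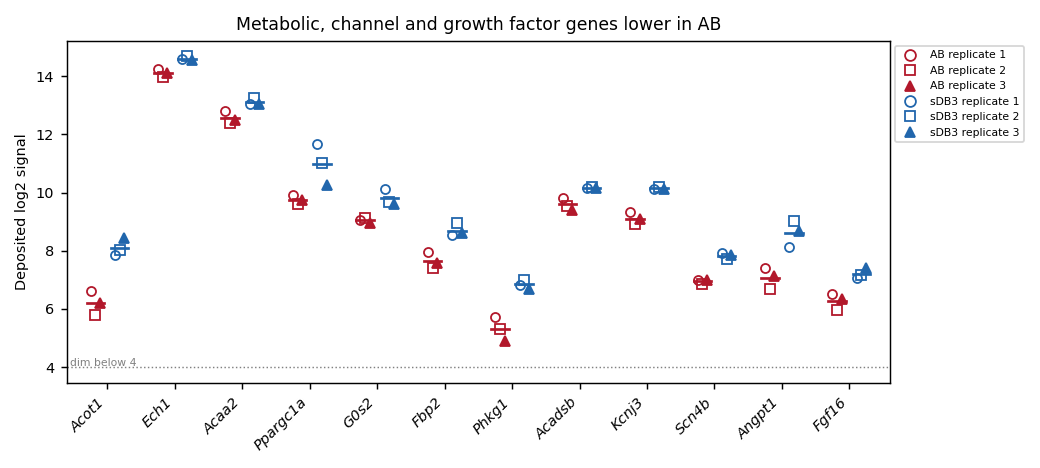
Deposited log2 signal (vertical) of 12 metabolic, channel and growth factor genes lower in AB, on each of the 3 AB arrays (left of each pair, red) and the 3 sDB3 arrays (right, blue), with bars at the group means. AB points lie below sDB3 points in all 12 genes, and Ppargc1a of sDB3 is spread from 10.25 to 11.68.

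Stress and immediate early genes are given beside the 17.3% of all genes tested that rose. Heat shock proteins rose in 7 of 24 members and fell in 0, and 3 rises held in every fit. Their median was 0.13, and -0.02 with 3 rises and 2 falls after centring on the genes tested. Hspa1l, an Hsp70 relative, was 7.13, 7.88 and 7.69 in AB and 6.02, 6.39 and 6.01 in sDB3 and rose by 1.43, and Hsp90aa1 rose by 0.63. Immediate early genes rose in 5 of 26 members (19.2%), a share near that of all genes, and fell in 0, with 2 falls without sDB3 replicate 3. Egr2 was 4.48, 5.01 and 5.07 in AB and 3.27, 3.14 and 3.27 in sDB3, and Myc was 5.63, 6.32 and 6.08 in AB and 4.79, 4.61 and 4.64 in sDB3. They rose by 1.63 and 1.33. Egr2 was above 4 on the 3 AB arrays only, so it met the filter on dim probe sets only through the group where it was high. Egr1 overlapped between the groups and did not pass (10.89, 9.11 and 9.13 in AB, 8.24, 7.23 and 10.24 in sDB3). Hmox1, haem oxygenase, rose by 0.81, and Canx, the endoplasmic reticulum chaperone calnexin, fell by 0.54 (SE 0.06, adjusted p = 0.00066). Grk5, a kinase that desensitises adrenergic receptors, rose by 0.87, and Rgs2, which dampens Gq signals, fell by 0.92.

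Clock genes separated 1 sDB3 array from the others. In the molecular clock, Arntl and Npas2 activate the Per and Ciart genes through E-boxes, the letters CACGTG, and Per and Ciart in turn repress them. Of 23 measured genes of the clock and its output, 4 rose (17.4%) and 7 fell (30.4%), beside 17.3% and 4.69% of all genes tested. The share of rises was near that of all genes, and 2 falls held in every fit. The falls numbered 12 without sDB3 replicate 3, 3 without AB replicate 1, AB replicate 2 or sDB3 replicate 2 and 2 without sDB3 replicate 1. After quantile normalization 2 rose and 8 fell. The rises numbered 0 without AB replicate 2 or sDB3 replicate 2 and 1 without AB replicate 1, AB replicate 3 or sDB3 replicate 1. The clock promoters with E-boxes are shown for this reason, Per1 at chr11:69098699-69098998 on the plus strand and Ciart at chr3:95882179-95882478 on the minus strand, with the E-box in capitals, a search added after the values were seen.
Per1: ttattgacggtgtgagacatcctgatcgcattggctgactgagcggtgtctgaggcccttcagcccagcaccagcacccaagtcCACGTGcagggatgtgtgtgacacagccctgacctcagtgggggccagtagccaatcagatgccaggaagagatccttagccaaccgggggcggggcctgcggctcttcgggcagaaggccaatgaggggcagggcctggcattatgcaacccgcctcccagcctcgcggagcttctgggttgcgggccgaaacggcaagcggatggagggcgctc
Ciart: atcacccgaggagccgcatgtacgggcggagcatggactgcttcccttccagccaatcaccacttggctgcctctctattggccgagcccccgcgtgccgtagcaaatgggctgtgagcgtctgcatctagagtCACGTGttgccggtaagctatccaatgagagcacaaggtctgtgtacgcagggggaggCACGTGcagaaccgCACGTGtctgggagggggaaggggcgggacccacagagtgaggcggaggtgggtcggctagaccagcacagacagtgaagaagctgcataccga
The Ciart promoter held the E-box 116, 58 and 44 bases before its start and that Per1 promoter held it 166 bases before, against 7.17% of all promoters with at least 1. Per2 had no entry, and those of Per3, Dbp, Arntl, Npas2 and the second Per1 start held none in this window.

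Per2 was 2.67, 2.56 and 2.56 in AB, against 5.60, 5.69 and 2.71 in sDB3. Ciart was 2.59, 2.61 and 3.26 in AB and 6.35, 6.65 and 2.85 in sDB3. In both, sDB3 replicate 3 stood at the level of the AB arrays, and the other sDB3 arrays stood far above. Per2 fell by 2.07 (adjusted p = 0.0355) and lost its call without any single AB array or sDB3 replicate 1 or 2, and Ciart, whose groups overlap, passed (log2 -2.46, adjusted p = 0.0422) and lost its call in 11 of the 12 fits that leave out 1 array. The activators ran the other way. Arntl, chosen after its values were seen, was 7.91, 7.66 and 7.31 in AB and 5.08, 4.51 and 7.31 in sDB3, and Npas2, likewise, was 6.18, 6.17 and 5.88 in AB and 4.09, 4.28 and 5.81 in sDB3. The sAB arrays stood with AB, with Per2 at 2.71, 2.56 and 2.70, and the DB3 arrays stood with sDB3 replicates 1 and 2, with Per2 at 5.16, 5.25 and 5.76. The hour of sampling is not given in the sources used here, and its part in these values was not tested. Nor was it tested whether the label of sDB3 replicate 3 is right, which every sDB3 mean assumes.

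Per1, in contrast to Per2, was above the AB arrays on sDB3 replicate 3 too. It was 4.24, 3.88 and 3.69 in AB, against 6.09, 6.64 and 5.32 in sDB3, and fell by 2.08 (SE 0.35, adjusted p = 0.00347), in every fit. Per1 was also higher in sDB3 than in sAB (log2 1.38, adjusted p = 0.0243). Klf15, a clock-controlled and glucocorticoid-responsive factor, was 8.58, 8.14 and 8.32 in AB and 9.22, 9.53 and 8.82 in sDB3 and fell by 0.84, and Pik3r1, a regulatory subunit of PI3-kinase, by 0.96. Both held in every fit. Both were also higher in sDB3 than in sAB (log2 0.70 and 0.56, adjusted p = 0.0259 and 0.0360), and AB against sAB gave -0.145 and -0.40 (adjusted p = 0.618 and 0.102). Among 22 glucocorticoid-responsive genes 1 rose (4.55%) and 4 fell (18.2%), beside 17.3% and 4.69% of all genes tested. There were 8 falls without sDB3 replicate 3 and 0 rises without any single AB array or sDB3 replicate 1 or 2. Zbtb16, a glucocorticoid-induced factor, was 7.26, 7.10 and 7.61 in AB and 10.61, 10.68 and 7.14 in sDB3, and the nuclear receptor Nr4a3 was 3.82, 4.60 and 4.08 in AB and 9.01, 7.51 and 3.97 in sDB3. Both had a large mean difference that did not pass (adjusted p = 0.0665 and 0.0726), with sDB3 replicate 3 at the AB level. The deadenylase Noct and the inhibitor Timp4 showed the same split, with 11.38, 11.27 and 9.50 for Noct and 10.26, 10.56 and 8.79 for Timp4 in sDB3 against 9.05 to 9.19 and 8.22 to 8.48 in AB, and both lost their call without any single AB array or sDB3 replicate 1 or 2.

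**Figure D5:**
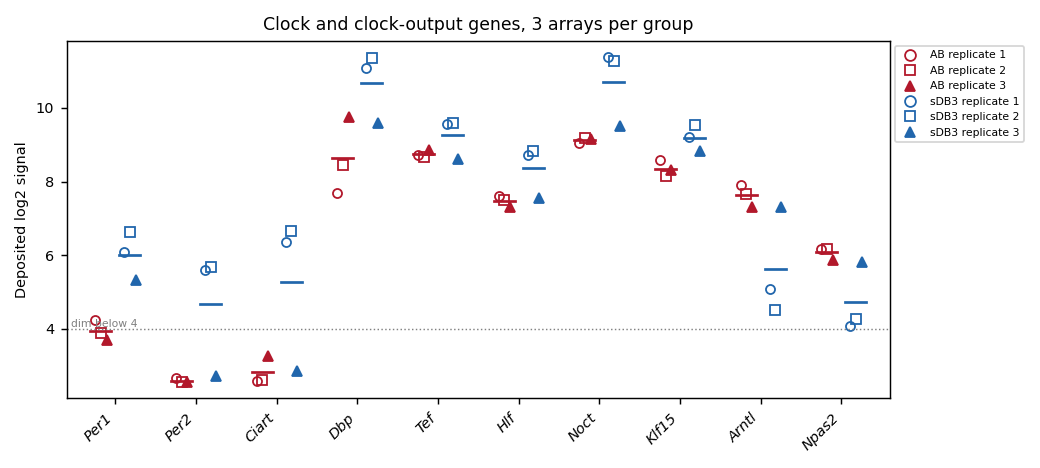
Deposited log2 signal (vertical) of 10 clock and clock-output genes on each of the 3 AB arrays (left of each pair, red) and the 3 sDB3 arrays (right, blue), with bars at the group means. The filled blue triangle, sDB3 replicate 3, lies near the AB points in Per2, Ciart, Arntl and Npas2, away from sDB3 replicates 1 and 2.

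The shams also differed from each other. sDB3 against sAB had 1861 genes past the threshold (17.8%), and AB against sAB had 2058 (19.7%). These comparisons share arrays with AB against sDB3, so their values are given side by side. The sAB arrays stood apart in spike levels, with BioC at 10.4 against 8.41 in AB and 8.39 in sDB3. Cre was 14.46 in sAB, 14.79 in AB and 14.78 in sDB3. Differences from sAB in the mice and in the handling of the arrays cannot be told apart here. The median gene differed by -0.09 in sDB3 against sAB and by 0.01 in AB against sAB. Over the hypertrophy list, the medians were 1.33 in AB against sDB3, 1.31 in AB against sAB and -0.01 in sDB3 against sAB. Over the clock list they were -0.47, -0.04 and 0.50, and over fatty acid genes -0.23, -0.24 and -0.01. Over potassium channels they were -0.49, -0.22 and 0.15, and over endothelial markers 0.34, 0.21 and -0.13. Myh7, Nppa, Cilp and Acot1 differed by 2.91, 2.07, 2.83 and -1.89 against sDB3 and by 3.16, 2.39, 2.81 and -1.81 against sAB. Spon2, Mki67, Per1, Efnb3 and Sox10 differed by 2.34, 2.27, -2.08, -1.55 and -1.06 against sDB3 and by 0.12, 0.15, -0.70, -0.57 and -0.03 against sAB.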

How the data were processed

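Total RNA of the left ventricle was hybridised to Affymetrix arrays, 1 per mouse, from 3 µg of RNA. The deposited values are log2 signals per probe set from GCRMA, per the submitters' processing notes. No source used here states its version or settings. Values ran from a floor of 2.23 to 16.6 and were used without further normalization. Probe sets with 1 gene symbol in the platform annotation (34945) and a log2 value above 4 on at least 3 of 12 arrays were kept, 1 per gene by the highest mean, which gave 10435 genes. AB was set against sDB3 in limma 3.58.1 (R 4.3.3, functions lmFit and eBayes), in 1 model of 4 groups with 8 residual and 2.68 prior degrees of freedom, two-sided, with Benjamini-Hochberg adjustment over all genes and a threshold of 0.05. All p-values of the text are from this limma model, and ± is the SE of its difference unless SD is stated. The smallest p of an exact permutation test with 3 arrays in each group is 0.1. The fit was tested on simulated data.

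Genes named are the 12 largest rises and 12 largest falls without overlap, 12 genes chosen for this tissue, and up to 4 members past the threshold and 2 not past it from each of 54 gene lists. Members, lists and rules were chosen with earlier results of these data known. Lists are described by counts and medians, without a set test. Of the genes with several probe sets, 7 had probe sets passing in opposite directions. In others only part of the probe sets passed, as 1 of 2 for Bdh1 and for Grk5 and 3 of 5 for Asph. Promoters are from RefSeq. Alternatives covered the dim filter, the probe set per gene, the scaling, the arrays in the fit and the moderation. Centring on the genes tested was added after the data were seen. Replicate numbers follow accession order and pair nothing.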

Additional observations from a re-analysis of the deposited data

How the results depend on the processing

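Scaling moved the split into higher and lower genes. Quantile normalization gave 918 higher genes, and centring on the genes tested, an alternative added after the data were seen, gave 738 higher and 1320 lower. Leaving out 1 array in turn gave 1124 to 2354 genes in all, 900 to 1840 higher and 224 to 514 lower; those more than 1.5 times away from the full count were the fits without AB replicate 2 (1231), AB replicate 3 (1124) and sDB3 replicate 2 (1446) for all genes, and without sDB3 replicate 1 for lower genes (311). Fewer samples enter these fits. No filter on dim probe sets gave 1602 genes, log2 above 6 gave 2237, averaging the probe sets of each gene 2304, only the 6 arrays compared 1785, an unmoderated analysis of variance 1921 and eBayes with trend and robust moderation 2493. At an unadjusted p under 0.05, 3814 genes passed. Of the 283 named genes, 0 reversed under these alternatives, a reversal being a changed sign with a call in either fit. Calls were lost by 65 of them without AB replicate 3, by 62 without AB replicate 2 and by 52 with no filter on dim probe sets. No paired analysis was possible because the labels give the arrays no replicate number. Signals near the floor, as for Dio2, Lman1l, Spon2, Egr2, Col4a3, Per2 and Ciart, have compressed differences.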

Other observations

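Vessel and growth signals were mixed. Of 23 angiogenic ligands and apelin genes 5 rose (21.7%) and 3 fell (13%) in AB, beside 17.3% and 4.69% of all genes tested. The rises numbered 1 without AB replicate 2 or AB replicate 3 and 2 without sDB3 replicate 1 or sDB3 replicate 2. Aplnr, the apelin receptor, was 12.45, 12.46 and 12.55 in AB, against 10.87, 10.99 and 11.60 in sDB3, and rose 2.52-fold (log2 1.33) in the main fit. The rise also passed in every alternative that scales the arrays or leaves 1 out. AB against sAB gave 0.59 (adjusted p = 0.138), and sDB3 against sAB gave -0.74 (adjusted p = 0.0725). Vegfc, a lymphatic growth factor, was 8.80, 8.91 and 8.89 in AB and 7.73, 7.52 and 8.60 in sDB3. Its call was lost without AB replicate 2, AB replicate 3 or sDB3 replicate 1, with no filter on dim probe sets and in a fit of the 6 arrays compared, and AB against sAB gave a log2 difference of 0.03. Among cardiac transcription factors, Hopx, a homeodomain cofactor, was 12.47, 12.01 and 12.24 in AB and 12.94, 13.06 and 12.81 in sDB3 and fell by 0.70 on the log2 scale. Tead1, which binds M-CAT motifs, was 10.83, 10.85 and 10.82 in AB and 10.31, 10.24 and 10.57 in sDB3 and rose by 0.46 on the log2 scale, while AB against sAB gave 0.05.

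Housekeeping groups and interferon genes turned on the scale. Of 31 proteasome genes 5 rose (16.1%, below the 17.3% of all genes tested) and 0 fell on the deposited scale. After centring on all probe sets 12 rose. The count was 1 after quantile normalization or without AB replicate 2, AB replicate 3 or sDB3 replicate 1. It was 1 to 6 over all fits with 1 array left out. After centring on the genes tested 0 rose and 1 fell. Of 31 cytosolic ribosomal proteins 0 rose and 1 fell, Rpl37 by 0.32, a call lost when any AB array, sDB3 replicate 1 or sDB3 replicate 3 was left out, with 7 falls after centring on the genes tested. Interferon and antigen presentation genes rose in 6 of 29 members (20.7%, near the 17.3% of all genes tested) and fell in 1. The rises numbered 2 after quantile normalization, 3 without sDB3 replicate 2 and 10 after centring on all probe sets. They numbered 1 after centring on the genes tested or without AB replicate 2, AB replicate 3 or sDB3 replicate 1. Ifit2, an interferon-induced protein, was 8.13, 8.56 and 8.61 in AB and 7.47, 7.22 and 7.83 in sDB3, and was the 1 rise of this list that held in every fit. Endoplasmic reticulum genes fell in 5 (18.5%) and rose in 3 (11.1%) of 27 members, beside 4.69% and 17.3% of all genes tested. They fell in 10 after centring on the genes tested, in 3 without AB replicate 2, in 1 without AB replicate 3 and in 2 without sDB3 replicate 2. The rises numbered 0 without AB replicate 2 and 1 without AB replicate 3 or sDB3 replicate 1. The chaperone Hspa5 was 13.03, 12.96 and 12.85 in AB and 13.12, 13.18 and 13.46 in sDB3 (limma adjusted p = 0.101). Nox4, an NADPH oxidase of fibroblasts and heart muscle, was 4.50, 4.63 and 6.10 in AB and 3.86, 2.75 and 2.88 in sDB3, and lost its call without AB replicate 3 or sDB3 replicate 2, or with no filter on dim probe sets.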
